A study of Homo sapiens with 6 samples.

Results

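The AP-1 family is made up here of *FOS*, *FOSB*, *FOSL1* and *FOSL2* (the FOS family), *JUN*, *JUNB* and *JUND* (the JUN family), and *ATF3*. These 8 genes were taken by symbol from the 58735 human Ensembl gene identifiers of the RNA-seq table, in which each of them has 1 identifier. HGC27 cells, a human gastric cancer line, were exposed to 0.125 µM ARV-825 (ARV125nM in the labels) for 48 h (n = 3 libraries) or kept at 0 nM (n = 3). The labels call the 0 nM cells untreated, and the methods of the study name DMSO, the name used below. ARV-825 is a degrader that links OTX015, which binds BET proteins, with a group that binds cereblon, a subunit of a ubiquitin ligase. All 6 libraries came from this 1 line at 1 dose and 1 time, and no label or method states whether the libraries of a group had separate cultures as their source, so the p-values refer to the spread among these samples alone, and that spread may be technical.

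AP-1 is a dimer of basic leucine zipper (bZIP) proteins. JUN proteins can pair with themselves or with FOS proteins, whereas FOS proteins bind DNA only with a partner, mostly a JUN protein. *FOS*, *FOSB*, *JUN*, *JUNB* and *ATF3* are known as early genes, which growth factors, cytokines and stress switch on within minutes and whose mRNAs are short-lived, while *JUND* is commonly expressed at a steady level and *FOSL1* and *FOSL2* follow later. BET proteins bind acetylated histones and help RNA polymerase II to pass from pausing into elongation.

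The authors deposited FPKM values, that is, fragments per kilobase of exon after division by 1 scale per library, so levels of different genes can be compared per length. The libraries held 14821971 to 19145661 fragments in genes. ARV-825 replicate 1 stood somewhat apart from replicates 2 and 3, and it had the highest level of the 3 for all 8 members, where it was the highest for 44.9% of all genes tested. Mitochondrial transcripts took 5.62% to 6.24% of the fragments in DMSO and 9.84% to 12.0% in ARV-825. None of 6 epithelial markers reached 1 FPKM in any library, keratins *KRT8*, *KRT18* and *KRT19* and *CDH1* being at or near 0. *EPCAM* averaged 0.0274 ± 0.0297 FPKM in DMSO against 0.602 ± 0.0750 in ARV-825, and the summed list went from 0.552 to 0.688 FPKM in the DMSO libraries to 1.09 to 1.39 in ARV-825. Among 6 gastric mucosa markers *TFF1*, *TFF2* and *GKN1* were at 0 in all 6. Among 5 stromal markers, 2 stayed below 1 FPKM in every library, while *COL1A1*, a collagen gene, had 141 ± 1.37 FPKM in DMSO against 27.2 ± 1.96 in ARV-825 (SD, n = 3 each), *DCN* was lower as well and *ACTA2* higher (0.911 ± 0.109 and 1.49 ± 0.0678 FPKM). The summed stromal list, mostly *COL1A1*, ran from 155 to 157 FPKM in DMSO and from 29.8 to 33.3 in ARV-825, while the summed list of 6 blood cell markers stayed at or under 1.63 FPKM in every library. The part of these shifts in the results below was not tested.

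The promoters of 5 members are shown because these genes differed widely in their response. Each run is the 210 bases before the transcription start in RefSeq (GRCh38.p14), read 5′ to 3′ on the strand of the gene. Capitals mark TGACG (the core of the cyclic AMP response element), TGACNTCA (that element in full when N is G, and an AP-1-like site of the *JUN* promoter when N is A) and TATAAA, on either strand.
*FOS*, chr14:75278618-75278827, strand +: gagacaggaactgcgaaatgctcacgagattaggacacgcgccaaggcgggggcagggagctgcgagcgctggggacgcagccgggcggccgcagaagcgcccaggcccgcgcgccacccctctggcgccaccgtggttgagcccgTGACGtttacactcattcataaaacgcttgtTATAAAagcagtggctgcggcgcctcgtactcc
*FOSB*, chr19:45467786-45467995, strand +: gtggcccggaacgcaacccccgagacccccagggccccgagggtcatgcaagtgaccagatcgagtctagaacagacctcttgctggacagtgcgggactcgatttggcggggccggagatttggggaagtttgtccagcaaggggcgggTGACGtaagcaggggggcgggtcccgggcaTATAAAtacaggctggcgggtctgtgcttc
*JUNB*, chr19:12791276-12791485, strand +: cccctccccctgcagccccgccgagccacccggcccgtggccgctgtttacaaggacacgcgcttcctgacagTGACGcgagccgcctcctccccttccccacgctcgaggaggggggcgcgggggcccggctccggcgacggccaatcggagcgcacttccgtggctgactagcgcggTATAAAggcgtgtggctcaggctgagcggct
*JUN*, chr1:58784048-58784257, strand -: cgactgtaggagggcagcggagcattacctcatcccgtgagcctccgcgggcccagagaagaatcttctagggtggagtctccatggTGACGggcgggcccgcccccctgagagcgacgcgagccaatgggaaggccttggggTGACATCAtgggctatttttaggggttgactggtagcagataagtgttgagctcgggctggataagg
*JUND*, chr19:18281623-18281832, strand -: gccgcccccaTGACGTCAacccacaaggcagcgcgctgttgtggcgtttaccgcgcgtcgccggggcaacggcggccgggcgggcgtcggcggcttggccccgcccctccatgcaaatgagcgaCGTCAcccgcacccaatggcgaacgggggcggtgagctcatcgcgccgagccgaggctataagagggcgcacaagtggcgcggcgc
In the 250 bases before the start, TATAAA lay at position −33 in *FOS*, −30 in *FOSB* and −31 in *JUNB*, counted from the start, and was absent from the windows of *JUN*, *JUND* and *FOSL2*. It occurs in 10.7% of all 35093 promoter windows of that length. Only exact matches were counted, and the *JUND* run holds tataag near its 3′ end, which differs from TATAAA in the last letter. TGACG was found in 6 of the 7 members that have a window in the table, all but *ATF3*, against 21.2% of all windows. The full TGACNTCA was found in 3 members (*JUN*, *JUND* and *ATF3*), against 6.87% of all windows, and any full match holds a TGACG where N is G. Neither TGANTCA, the classic AP-1 site, nor CACGTG, an E-box, was found in any of the 7 (6.57% and 6.34% of all windows). *ATF3* has 2 starts in the table, the second with TATAAA at −230, and *FOSL1* is named only. A match describes the letters of the window and shows neither binding nor a cause.

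The question put to these libraries was how ARV-825 changed transcript levels. All 6 members whose mean over the 6 libraries reached 1 FPKM rose after ARV-825, and each of them was above 1 FPKM in every DMSO library, so the filter did not select them for a rise. *FOS* and *JUNB* rose 18.1-fold and 11.5-fold by the ratio of the mean FPKM, *ATF3* 3.25-fold, *JUND* 2.29-fold, *JUN* 1.96-fold and *FOSL2* 1.35-fold. Differences were tested with limma on log2(FPKM + 1), a scale that understates the change of low genes, with Benjamini-Hochberg adjustment over 13442 genes. At an adjusted p under 0.05, 37.0% of these genes were higher and 40.2% lower, or 77.2% in either direction. With an absolute log2 fold change above 1 as well, 8.81% were higher and 12.1% lower, and 4 of the 6 members were among the higher ones (3 on TPM, without *JUND*, and 5 after quantile normalization, with *JUN*). Over the 6 members the median log2 fold change came to 1.40, against −0.02 over all genes tested. The per-library plot gives the values of each member.

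**Figure D1:**
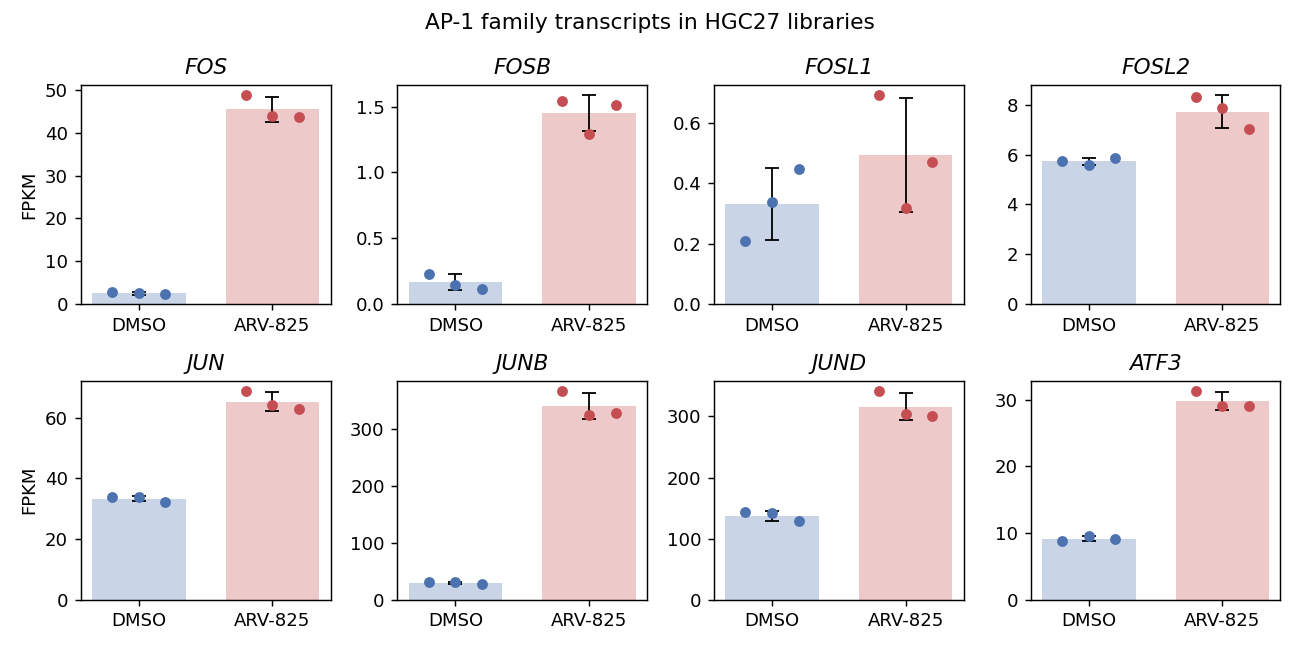
FPKM of the 8 AP-1 family genes (y axis, linear, own range in each panel) in DMSO and ARV-825 (x axis). Points are libraries in the order of their replicate numbers, bars are means and error bars are SD (n = 3 each). The ARV-825 points lie above the DMSO points in every panel but that of *FOSL1*, and *FOS* goes from 2.51 to 45.5 FPKM on average.

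Among the JUN family, *JUNB* changed the most. *JUNB* encodes a JUN protein that is a weaker activator than c-Jun and often opposes its effect on growth. Its level was 31.4, 30.3 and 26.7 FPKM in DMSO replicates 1, 2 and 3 and 366, 325 and 328 FPKM in ARV-825. The groups lay far apart, with the lowest ARV-825 library above the highest DMSO library, and the log2 fold change was 3.49 (SE 0.0730, adjusted p = 1.66e-07 from limma). By level, it went from rank 1438 to rank 93 among the genes tested. On chromosome 19 of GRCh38 (12791496 to 12793315, forward strand) it is a gene of 1 exon, as *JUN* and *JUND* are. Of its exon bases, 14.2% are shared with *HOOK2* on the opposite strand, and the type of kit named in the labels does not mark strand. *HOOK2* had 6.43 ± 0.189 FPKM in DMSO against 7.81 ± 0.416 in ARV-825 (SD, n = 3 each), a difference lost on TPM (log2 fold change −0.03, adjusted p = 0.678 from limma).

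*JUND*, which in many cells restrains proliferation, was the most abundant member in DMSO. It stood at 143, 142 and 128 FPKM in the DMSO libraries and 342, 305 and 301 FPKM in the ARV-825 libraries. The groups did not overlap (log2 fold change 1.19, SE 0.0655, adjusted p = 4.47e-06 from limma). *JUN*, which encodes c-Jun, the partner that activates many AP-1 targets and its own gene, stood at 33.7, 34.0 and 32.3 FPKM in DMSO and 68.8, 64.1 and 62.9 FPKM in ARV-825. It also separated the groups, and its log2 fold change was 0.95 (limma, SE 0.0442, adjusted p = 2.19e-06), just under the fold threshold. *JUND* lies on the reverse strand of chromosome 19 (18279760 to 18281622) and *JUN* on that of chromosome 1 (58780788 to 58784327), with no exon shared with another gene in GENCODE 29.

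In the FOS family the change was concentrated in *FOS* itself, the gene of c-Fos. *FOS* stood at 2.86, 2.48 and 2.20 FPKM in DMSO and 48.8, 43.9 and 43.8 FPKM in ARV-825. These values rest on 138 to 166 fragments in each DMSO library and 2075 to 2302 in each ARV-825 library. Its log2 fold change, 3.73 (SE 0.0786, adjusted p = 1.66e-07 from limma), was the highest of the members and ranked 24th among protein-coding genes. With a pseudocount of 0.01 it was 4.18, since *FOS* was low in DMSO. The gene lies on the forward strand of chromosome 14 (75278774 to 75282230).

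*FOSL2*, which encodes Fra-2, stood at 5.75, 5.58 and 5.86 FPKM in DMSO and 8.31, 7.85 and 7.03 FPKM in ARV-825. The groups did not overlap, but the difference was small (log2 fold change 0.37, SE 0.0620, adjusted p = 0.00119 from limma). It kept its call when scaled to fragment totals (log2 fold change 0.30). On TPM, where each library is rescaled to the same sum, *FOSL2* no longer passed (log2 fold change 0.11, adjusted p = 0.235).

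*FOSB* and *FOSL1* had a mean FPKM below 1 and were not in the main test. *FOSB*, the paralogue of *FOS* on chromosome 19, stood at 0.231, 0.146 and 0.116 FPKM in DMSO and 1.54, 1.29 and 1.51 FPKM in ARV-825. The groups were separate, and the summed fragments were 50 in DMSO (exact Poisson 95% interval 37.1 to 65.9) and 356 in ARV-825 (320 to 395). With the filter set at a mean of 0.1 FPKM the log2 fold change was 1.07 (SE 0.0789, adjusted p = 5.34e-05 from limma), and with limma-voom on the recovered fragments, chosen after the data were seen, it was 3.08 (SE 0.253), the ratio of the means being 8.82. *FOSL1*, the gene of Fra-1, stood at 0.207, 0.339 and 0.446 FPKM in DMSO and 0.691, 0.317 and 0.471 FPKM in ARV-825. These groups overlapped, the summed fragments were 35 (24.4 to 48.7) and 41 (29.4 to 55.6), and no difference was detectable at this depth (log2 fold change 0.16, SE 0.120, adjusted p = 0.293 at the lower filter). The intervals cover counting error only, and the summed fragments are not adjusted for depth. The DMSO libraries were deeper (16626609 to 19145661 fragments in genes) than the ARV-825 libraries (14821971 to 15201942).

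*ATF3* encodes a stress-induced bZIP protein that represses many promoters as a homodimer and also pairs with JUN proteins. It stood at 8.80, 9.56 and 9.12 FPKM in DMSO and 31.3, 29.1 and 29.02 FPKM in ARV-825. The groups were separate (log2 fold change 1.60, SE 0.0476, adjusted p = 4.08e-07 from limma). The gene spans 212565334 to 212620777 on the forward strand of chromosome 1. For all 6 tested members every ARV-825 library was above every DMSO library, a pattern shown by 38.5% of all genes tested, against 41.6% with every ARV-825 library below and 80.1% in either direction. Their place among the other genes is shown by the scatter plot of fold change against level.

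**Figure D2:**
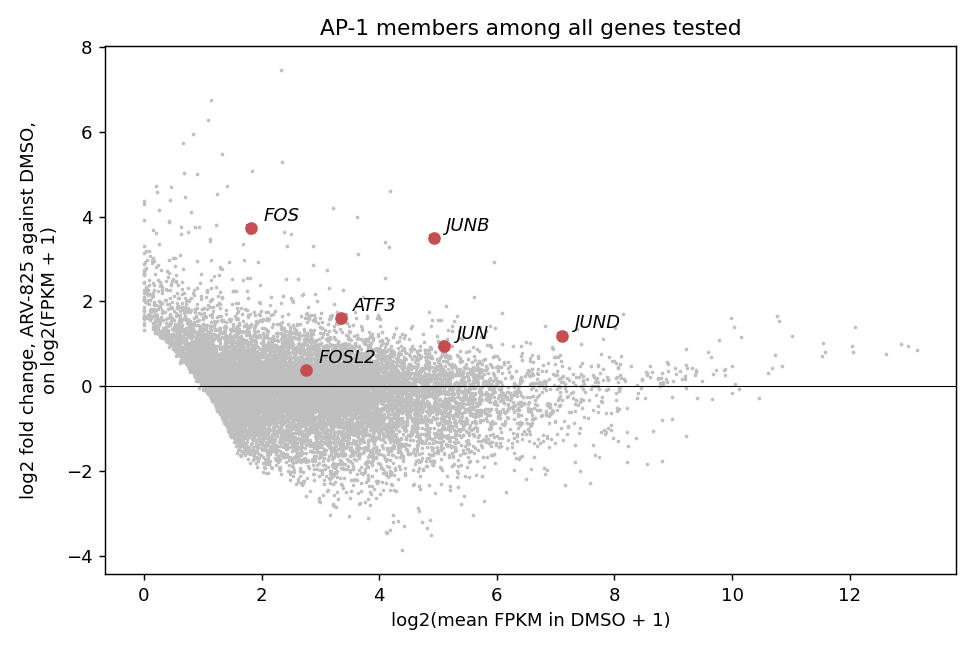
Log2 fold change, ARV-825 against DMSO, on log2(FPKM + 1) (y axis) against log2 of the mean FPKM in DMSO plus 1 (x axis), for 13442 genes (grey) and the 6 tested AP-1 members (red, with SE bars mostly smaller than the symbols). *FOS* at 3.73 and *JUNB* at 3.49 lie near the top of the cloud, and *FOSL2* at 0.37 lies inside it.

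The members did not keep their proportions. The 8 genes summed to 226, 224 and 205 FPKM in the DMSO libraries and 867, 776 and 774 FPKM in the ARV-825 libraries. That is a 3.69-fold higher mean, and the sum went from 0.0760% ± 0.00335 to 0.226% ± 0.0194 of the FPKM of all genes (SD, n = 3 each). A share within a library does not depend on the library scale, so the shares do not change on TPM. In DMSO, *JUND* held 63.3%, 63.3% and 62.5% of the family FPKM in replicates 1, 2 and 3, and in ARV-825 39.4%, 39.2% and 38.9%. *JUNB* went the other way, from 13.9%, 13.5% and 13.0% to 42.2%, 41.9% and 42.4%. The mean share differed by 28.7 percentage points for *JUNB* and −23.9 for *JUND*, although both genes rose in FPKM (log2 fold changes 3.49 and 1.19).

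*JUN* went from 15.3% ± 0.445 to 8.11% ± 0.166 of the family, *FOSL2* from 2.63% ± 0.201 to 0.959% ± 0.0523, and *ATF3* from 4.20% ± 0.285 to 3.70% ± 0.0801 (SD, n = 3 each). *FOS* went from 1.15% ± 0.102 to 5.64% ± 0.0188 and *FOSB* from 0.0747% ± 0.0242 to 0.180% ± 0.0145. *FOSL1* had 0.153% ± 0.0631 and 0.0604% ± 0.0194, from 7 to 19 fragments per library. Each of the 8 shares separated the groups in full (exact permutation test, two-sided, p = 0.1, the lowest possible with 3 against 3), so no share could pass a threshold of 0.05. In fragments in place of FPKM the *ATF3* shares overlapped. The stacked bars of the family make-up show how closely libraries of a group matched.

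**Figure D3:**
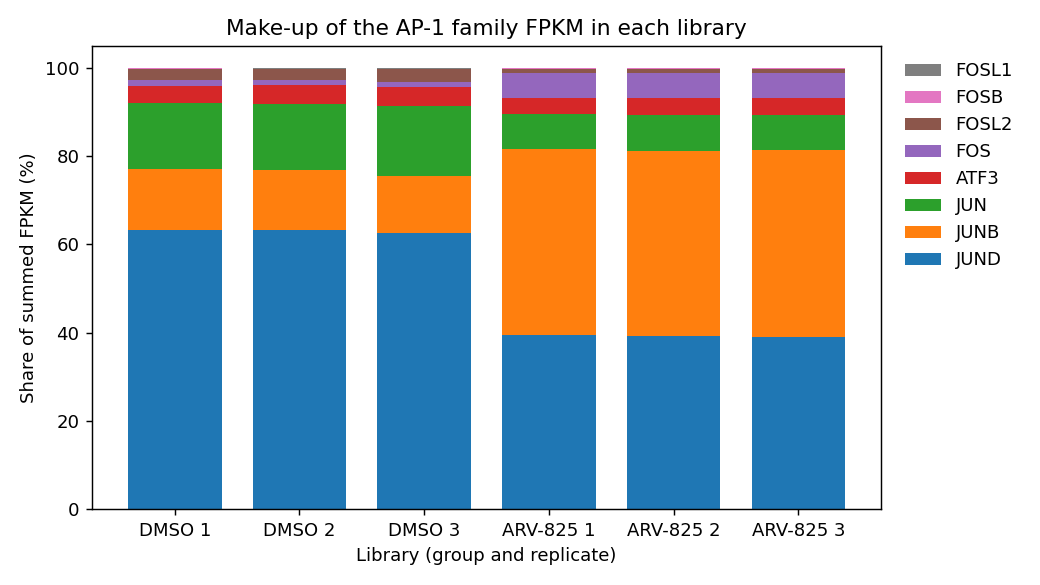
Share of each AP-1 gene in the summed FPKM of the 8 genes (y axis, percent) in each of the 6 libraries (x axis). *JUND* is the widest segment in the 3 DMSO libraries, with 62.5% to 63.3%, and *JUNB* and *JUND* are close to each other in the 3 ARV-825 libraries, with 41.9% to 42.4% and 38.9% to 39.4%.

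The order of the levels changed accordingly. In DMSO it was *JUND*, *JUN*, *JUNB*, *ATF3*, *FOSL2*, *FOS*, *FOSL1* and *FOSB*, with the ranges of neighbours apart except for *FOSL1* and *FOSB*. In ARV-825 it was *JUNB*, *JUND*, *JUN*, *FOS*, *ATF3*, *FOSL2*, *FOSB* and *FOSL1*. There the FPKM ranges of *JUNB* and *JUND* overlapped, though *JUNB* was above *JUND* within each of the 3 libraries, and the other neighbours were apart. The ratio of *JUNB* to *JUND* was 0.219, 0.213 and 0.208 in the DMSO libraries and 1.07, 1.07 and 1.09 in the ARV-825 libraries, while that of *JUND* to *JUN* moved less, from 4.13 ± 0.146 to 4.83 ± 0.114 (SD, n = 3 each). JUN family transcripts outnumbered those of the FOS family by 22.9 ± 1.22 to 1 in DMSO and 13.1 ± 0.0578 to 1 in ARV-825. *FOS* stood at 0.439 ± 0.0609 of *FOSL2* in DMSO and 5.89 ± 0.324 times *FOSL2* in ARV-825. *ATF3*, at 3.69 ± 0.553 times *FOS* in DMSO, was at 0.656 ± 0.0120 of it in ARV-825. The FPKM of transcripts does not give the amounts of the proteins or of their dimers, which were not measured here.

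Around the family, 69 genes in 5 lists were counted at the adjusted p alone, against 37.0% higher and 40.2% lower of all genes. Of 15 other bZIP genes whose proteins pair with FOS or JUN proteins, 8 were tested, of which 3 were higher, 3 lower and 2 without a call (median log2 fold change 0.11). *JDP2*, a repressor that dimerizes with JUN proteins, fell from 10.0 ± 0.382 to 3.36 ± 0.371 FPKM (SD, n = 3 each). *JDP2* lies 145 kb from *FOS* on chromosome 14, and *BATF*, 48.3 kb further, was listed at 0 in all DMSO libraries and in 2 of the 3 ARV-825 libraries. *ATF4*, known to induce *ATF3* in the integrated stress response, fell from 263, 269 and 264 FPKM to 114, 106 and 105 FPKM (log2 fold change −1.28, SE 0.0396, adjusted p = 4.68e-07 from limma). Its mRNA thus moved opposite to that of *ATF3*, and a link between them was not tested. Of the small MAF genes, whose proteins lack an activation domain, *MAFF* and *MAFG* rose, with log2 fold changes of 0.86 and 0.69. *MAFF* passed the filter only through ARV-825 (mean 0.705 FPKM in DMSO). *MAFK*, also a small MAF gene, fell from 5.50 ± 0.167 to 3.75 ± 0.167 FPKM (log2 fold change −0.45, adjusted p = 0.000120 from limma).

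Of 16 kinase genes of the MAP kinase routes to AP-1, 14 were tested, of which 9 were higher, 2 lower and 3 did not pass (median 0.18). On TPM the split was 4 higher and 5 lower, where 3176 of all 13442 genes were higher and 7214 lower. *MAPK3*, the gene of ERK1, fell from 13.1 ± 0.813 to 3.11 ± 0.251 FPKM (SD, n = 3 each). *MAPK8*, the gene of JNK1, which phosphorylates c-Jun, rose from 2.89 ± 0.219 to 5.50 ± 0.255 FPKM. *MAPK14*, the gene of p38α, rose from 10.6 ± 0.756 to 18.8 ± 0.566 FPKM, and *MAP2K3*, an activator of p38, from 13.1 ± 0.109 to 23.7 ± 2.84 FPKM. These 4 kept their direction and their call on TPM.

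The 7 factors of the *FOS* and *JUN* promoters were all tested, and 4 were higher, 2 lower and 1 did not pass (median 0.27), with 1 higher on TPM. *MEF2D*, a factor of the *JUN* promoter, rose from 8.89 ± 0.452 to 19.5 ± 1.11 FPKM (SD, n = 3 each). *CREB1*, whose protein binds the cyclic AMP element, went from 4.64 ± 0.0436 to 6.09 ± 0.210 FPKM, a rise lost on TPM (log2 fold change 0.07). *ELK1*, a partner of serum response factor, went from 9.67 ± 0.536 to 11.9 ± 0.740 FPKM, and on TPM its sign turned (−0.01). *ELK3* was lower at an adjusted p = 0.0497 from limma. That call was lost with either other pseudocount or filter, without any 1 of the DMSO libraries and without ARV-825 replicate 1 or 3. The count of lower genes was 0 without DMSO replicate 1 or without ARV-825 replicate 3, and 1 without DMSO replicate 2 or 3.

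Of 10 genes that act on the turnover of AP-1 proteins or their mRNAs, in either direction, 9 were tested. There 3 were higher, 5 lower and 1 did not pass (median −0.24), and on TPM 1 was higher. *ZFP36*, whose protein TTP speeds the decay of mRNAs with AU-rich elements such as that of *FOS*, rose from 1.97, 1.18 and 1.18 FPKM to 16.7, 15.6 and 15.9 FPKM (log2 fold change 2.82, SE 0.122, adjusted p = 1.63e-06 from limma). Its relative *ZFP36L2* fell from 34.6 ± 1.24 to 12.6 ± 0.552 FPKM (SD, n = 3 each). *HNRNPD*, which encodes the AU-rich element binding protein AUF1, fell from 85.3 ± 2.51 to 26.5 ± 0.613 FPKM, and *ELAVL1*, whose protein HuR stabilizes such mRNAs, from 25.5 ± 0.470 to 16.9 ± 0.729 FPKM.

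Genes known as AP-1 targets did not move one way. Of 21 listed, 11 were tested, and 5 were higher, 5 lower and 1 did not pass (median 0.10). *PLAU*, the gene of urokinase, rose from 0.905 ± 0.153 to 5.35 ± 0.746 FPKM (SD, n = 3 each), and *CD44*, a hyaluronan receptor, from 5.19 ± 0.158 to 13.7 ± 0.151 FPKM. *VEGFA*, the angiogenic factor, fell from 11.5 ± 0.215 to 3.67 ± 0.175 FPKM. *CXCL8*, listed at 0 in DMSO, and *PLAU* passed the filter only through ARV-825, so these 2 of the 5 higher targets had to differ. The collagenase gene *MMP1* and the stromelysin gene *MMP3* were listed at 0 in DMSO and stayed under 1 FPKM in ARV-825. With the filter at 0.1 FPKM, 10 targets were higher and 6 lower, against 7034 higher and 6756 lower of all 23917 genes then tested. The count of lower targets was 3 without DMSO replicate 1, without DMSO replicate 2 or without ARV-825 replicate 3. The strip plot of the lists sets these genes beside the members.

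**Figure D4:**
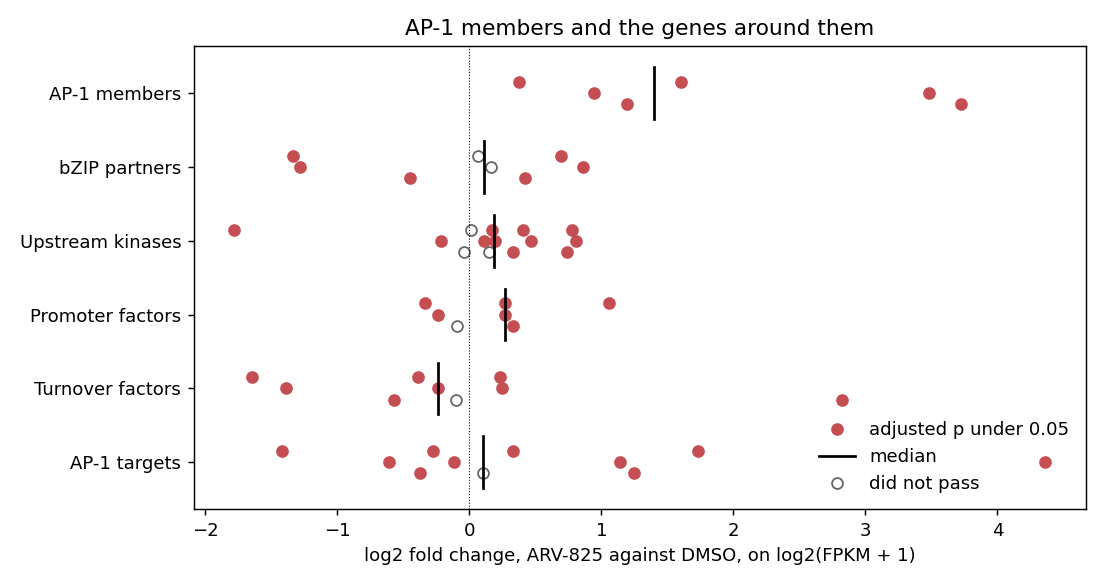
Log2 fold change, ARV-825 against DMSO, on log2(FPKM + 1) (x axis) of the tested genes of the AP-1 family and of 5 lists around it (y axis). Each point is a gene, filled at an adjusted p under 0.05, and the black line is the median of the list, 1.40 for the members and from −0.24 to 0.27 for the other lists.

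Of the 17 genes tested within 50 kb of a member, a window chosen after the data were seen, 5 were higher and 4 lower. The other 8 had no call, and the median was −0.01 on the log2 scale. All 17 lay near *FOSB*, *FOSL1*, *JUNB* or *JUND*, the other members having no tested gene in that window. Over all genes tested, 37.0% were higher and 40.2% lower. On TPM 3 neighbours were higher and 9 lower, against 3176 higher and 7214 lower of all 13442 genes. Of the 5 higher genes, 2 (*IQCN* and an unnamed gene) were below 1 FPKM in DMSO and passed the filter only through ARV-825. *IQCN*, 5251 bases downstream of *JUND* on the same strand, went from 0.102 ± 0.0227 to 7.65 ± 0.701 FPKM (SD, n = 3 each, log2 fold change 2.97, SE 0.0752, adjusted p = 2.70e-07 from limma). Likeness of pattern was measured as the root mean square distance of log2(FPKM + 1) over the 6 libraries, each gene set to its DMSO mean. Nearest to *FOS* were *H2AC11* (distance 0.110), *TXNIP* (0.111) and *IER3* (0.112), the latter from 4.66 ± 0.865 to 66.7 ± 4.90 FPKM. Nearest to *JUN* were *YJU2B*, *CTSB* and *CLEC16A*, at distances of 0.0141 to 0.0206, and nearest to *ATF3* were *SERTAD1*, *HPS1* and *ABTB2*, at 0.0239 to 0.0253. With 2 groups, such distances mostly reflect the size of the group difference.

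The direction of the 6 tested members held under every alternative setting run, as the plot of settings shows. *JUNB* ranged from 3.21 to 3.53 on the log2 scale, *FOS* from 3.66 to 4.18, *ATF3* from 1.36 to 1.70, *JUND* from 0.88 to 1.22 and *JUN* from 0.65 to 1.05. All of these passed at an adjusted p under 0.05 in each setting, and only *FOSL2*, from 0.11 to 0.44, lost its call at that threshold, on TPM.

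**Figure D5:**
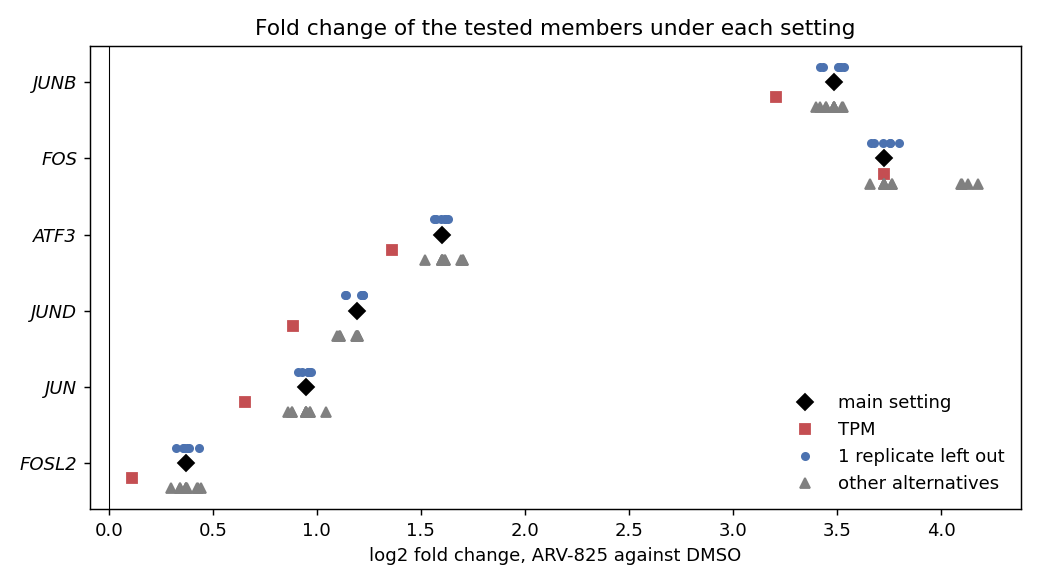
Log2 fold change, ARV-825 against DMSO (x axis), of the 6 tested AP-1 members (y axis) in the main setting (diamonds), on TPM (squares), with 1 replicate left out (circles) and under the other alternatives (triangles). All points lie above 0, the TPM value of *FOSL2* being the lowest at 0.11.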

How the data were processed

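Transcript levels of HGC27 cells were measured by RNA-seq in 3 ARV-825 and 3 DMSO libraries, and the samples were grouped by their titles. The authors deposited FPKM values for 58735 genes, 1 column per library. According to the submitters' processing notes the reads were aligned with HISAT2 2.0.5. These notes also name mm10, a mouse build, whereas every identifier is human and occurs in GENCODE 29 (GRCh38). No counting tool is given in the sources used here. Multiplying FPKM by exon length and by 1 factor per library gave whole fragments, to within 0.05, for 100% of the values above 0. Log2(FPKM + 1) of the 13442 genes averaging 1 FPKM or more was compared with limma 3.58.1 in R 4.3.3 (intensity trend, no further covariate), with Benjamini-Hochberg adjustment. The procedure was tested on simulated data. Shares were compared by exact permutation tests over libraries. Per list, up to 4 genes past an adjusted p of 0.05 were named by the size of their change, besides the members and the nearest patterns. *EPCAM*, *COL1A1*, *DCN*, *ACTA2*, *HOOK2*, *IQCN*, *BATF*, *MAFK*, *MMP1* and *MMP3* were named after their values were seen. The members and lists were chosen with earlier results of these data known. Alternatives covered the pseudocount, the filter, the scaling, the trend, voom, the replicate block and each replicate left out.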

Additional observations from a re-analysis of the deposited data

How the results depend on the processing

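Among 422 alternative values of the members, their shares and the list counts, 387 kept their side of the threshold or stayed near the value reported. No fold change, share change or ratio among them reversed its sign (of the named list genes, *ELK1* did on TPM). Values of other kinds among the 422 are counts of genes, which cannot change sign and so say nothing on direction. On TPM the median over all genes was −0.31 instead of −0.02 (log2), *FOSL2* fell to 0.11 and lost its call, the summed family went from a log2 ratio of 1.88 to 1.57, the kinases to 4 higher and 5 lower, the promoter factors to 1 higher and the turnover factors to 1 higher. The share of higher genes among all calls then went from 47.9% to 30.6%. Scaled to fragment totals, it was 43.0%, and the 6 members kept their calls. With a mean of at least 0.1 FPKM, 5 bZIP partners were higher and 4 lower, and 10 targets were higher and 6 lower. Of all 23917 genes then tested, 7034 were higher and 6756 lower. The same list counts came from voom with a minimum of 10 fragments in the 6 libraries together, chosen after the data were seen. There 7256 of all 23215 genes were higher and 8080 lower. With no filter, 10 targets were higher and 5 lower, against 7172 higher and 6840 lower of all 34682 genes. Fewer promoter factors (1) were lower with a pseudocount of 0.1 or 0.01, with either other filter, with quantile normalization and without mitochondrial genes in the scale. With 1 replicate left out, the count of lower promoter factors ran from 0 to 2 and that of lower targets from 3 to 5. In fragments rather than FPKM, which weights long genes more, the share changes were 6.75 percentage points for *FOS*, 0.279 for *FOSB*, −4.84 for *FOSL2*, −9.83 for *JUN*, 24.6 for *JUNB* and −16.5 for *JUND*, the *ATF3* shares overlapped between the groups, and the log2 ratio of the FOS to the JUN family changed by 0.31 instead of 0.81. For *FOS* and *FOSB* over *JUN* and *JUNB* alone it changed by 1.45. The causes were not tested beyond the construction of each setting. Same-numbered replicates did not deviate together (correlations of 0.00, 0.04 and 0.04 over genes), so the numbers were not treated as pairs, and the correlation was highest with the own number in each case. With the replicate block, 1 promoter factor was lower instead of 2, all 6 members stayed higher, and 4870 genes were higher and 5279 lower against 4977 and 5405. Depth limits *FOSL1*, with 7 to 19 fragments per library.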
